A study of Rattus norvegicus with 9 samples.

Results

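The mitochondrial respiratory chain genes were taken as every probe set whose single gene symbol in the platform annotation begins with Atp5, Cox4 to Cox8, Nduf, Uqcr or Etf, or is Sdha to Sdhd (with their assembly factors), Cyc1 or Cycs. This gave 107 probe sets of 58 genes among the 8799 probe sets of the Affymetrix rat genome array used, which carries 4737 genes with a single symbol, and 7 more probe sets with such a symbol among several were left out. Male Sprague Dawley rats, weaned to the diet of their mothers, had been fed for life purified diets that differed in protein source, which was casein in the control diet (CAS), an isolate of soy protein (SPI) or a hydrolysate of whey protein (WPH). All of them, including the casein controls, received azoxymethane (AOM), a colon carcinogen, under the skin, 15 mg/kg in each of 2 weekly injections, starting at an age of 90 days. Non-tumor tissue of the proximal colon was collected 40 weeks later, and 1 RNA pool of 7 rats was made per diet. From each pool 3 labeled targets were prepared in parallel and hybridized, so that each diet had 3 arrays, the spread between them is technical, and p-values refer to the pools rather than to individual rats. The values are MAS 5.0 signals on a linear scale, scaled by the authors to an average of 500 per array. They carry no detection calls, and since probe sets differ in how strongly they hybridize, signals of different probe sets describe their brightness on the array and are not compared as levels of transcripts.

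The respiratory chain transfers electrons from nutrients to oxygen in the inner mitochondrial membrane. Complex I (the Nduf genes) accepts electrons from NADH, complex II (Sdh) from succinate, and the electron transfer flavoprotein and its dehydrogenase (Etfa, Etfdh) from the oxidation of fatty acids and some amino acids. All of these electrons pass to complex III (Uqcr and Cyc1) and then to complex IV (Cox), which reduces oxygen, and ATP synthase (Atp5) uses the resulting proton gradient. Most subunits are encoded in the nucleus, whereas the catalytic core of complex IV is encoded in mitochondrial DNA. In the colon, epithelial cells oxidize butyrate from bacterial fermentation in their mitochondria, and smooth muscle, neurons and other cells of the wall contain the same machinery.

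The respiratory chain probe sets had a smaller share of calls between WPH and CAS than the array as a whole, a difference that was not tested. Of the 107 probe sets, 95 of 56 genes had a group mean of 100 or more with 1 diet or more and entered the tests, 89 of them with all 3 diets. The 12 others, with no group mean above 94.6, were all probe sets of Cox8b and the pseudogene Cox6c-ps1, 3 of Ndufa4l2 and 1 each of Ndufab1, Ndufb8, Ndufb11, Ndufs4, Ndufs8 and Cox6a2. With WPH, 15 respiratory chain probe sets rose and 12 fell relative to CAS at a limma adjusted p under 0.05, which is 15.8% and 12.6% of those compared, whereas among all 5606 probe sets compared the shares were 20.9% higher and 17.9% lower. After quantile normalization the split was 12 higher and 15 lower, with no share over all probe sets to set beside it. That normalization lowered the median log2 change of the 112 probe sets on the array averaging 10000 or more, from 0.602 to 0.115. For the 5 members that bright it went from 0.165 to -0.248. The 27 probe sets that passed as scaled by the authors represented 22 genes. The median log2 change over the 95 was 0.05, beside 0.06 over all probe sets, and the median size of the change irrespective of direction was 0.24, beside 0.38. A change below 0.5 on the log2 scale was found for 81 of the 95 (85.3%), beside 60.4% of all probe sets. A change of at least 2-fold at an adjusted p under 0.05 was found for 2, both of them lower, beside 14.0% of all probe sets. Members were brighter than the array as a whole, with a median signal of 1784 against 368, and their median standard error was smaller, 0.14 against 0.17 on the log2 scale.

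With SPI, fewer members passed the test against CAS. No member was higher by limma's adjusted p, beside 12.0% of all probe sets, and 6 were lower (6.32%), beside 10.2%. At an unadjusted p under 0.05, limma gave 1 higher (1.05%) and 13 lower (13.7%), beside 17.6% and 16% of all probe sets. The t-test named in the methods gave 2 higher and 9 lower, with no share over all probe sets to set beside it. The median log2 change was -0.04, beside -0.01 over all probe sets, and 91 of the 95 changes were below 0.5 in size. Between SPI and WPH, 2 members were higher with SPI and 6 lower, beside 10.1% and 9.83% of all probe sets. A 2-fold change was reached by 1 member in SPI against CAS (5.78% of all probe sets) and by none in SPI against WPH by the same test (5.49%). The comparisons share their CAS, SPI or WPH arrays and are therefore not independent of each other.

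**Figure D1:**
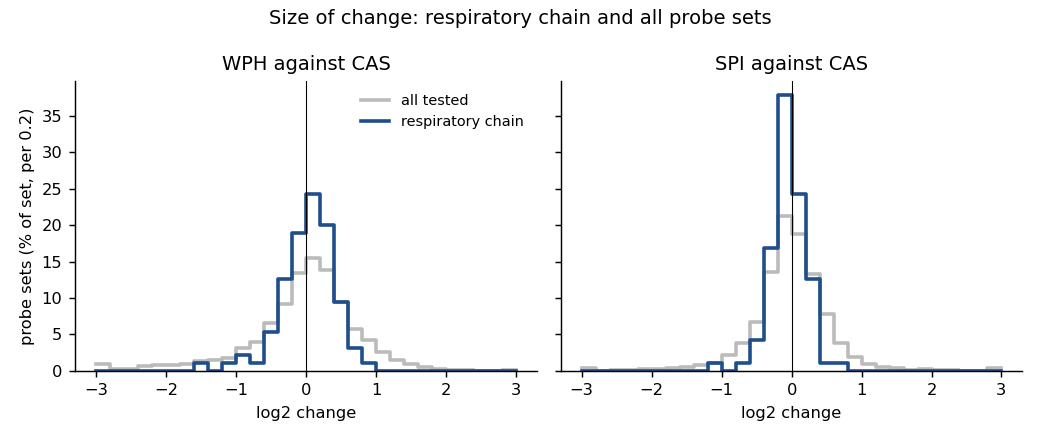
Distribution of the log2 change against CAS for the 95 respiratory chain probe sets (blue) and all 5606 probe sets compared (gray), as the percentage of each set per interval of 0.2, with changes beyond 3 placed in the outermost intervals. The blue outlines are narrower and reach from -1.6 to 1.

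The counts of higher and lower members by complex stand beside 20.9% higher and 17.9% lower among all probe sets in WPH against CAS. In ATP synthase 5 of 17 probe sets rose and 1 fell with WPH relative to CAS (median log2 change 0.17). The one that fell is among 4 compared probe sets assigned to Atp5if1, an inhibitor of the enzyme, and the others did not pass. In complex I 5 of 41 were higher and 4 lower (median 0.14), and in complex IV, with shares near those of the array, 5 of 23 were higher and 4 lower (median 0.02). Among the 5 probe sets of the electron transfer flavoprotein genes, 3 were lower, none was higher at an adjusted or an unadjusted p under 0.05, and the median was -0.56. None of the 7 probe sets of complex III and neither of the 2 of complex II passed the limma test, with medians of -0.07 and -0.06. At an unadjusted p under 0.05, 1 probe set of complex III was lower. Whether the complexes differed from each other was not tested.

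**Figure D2:**
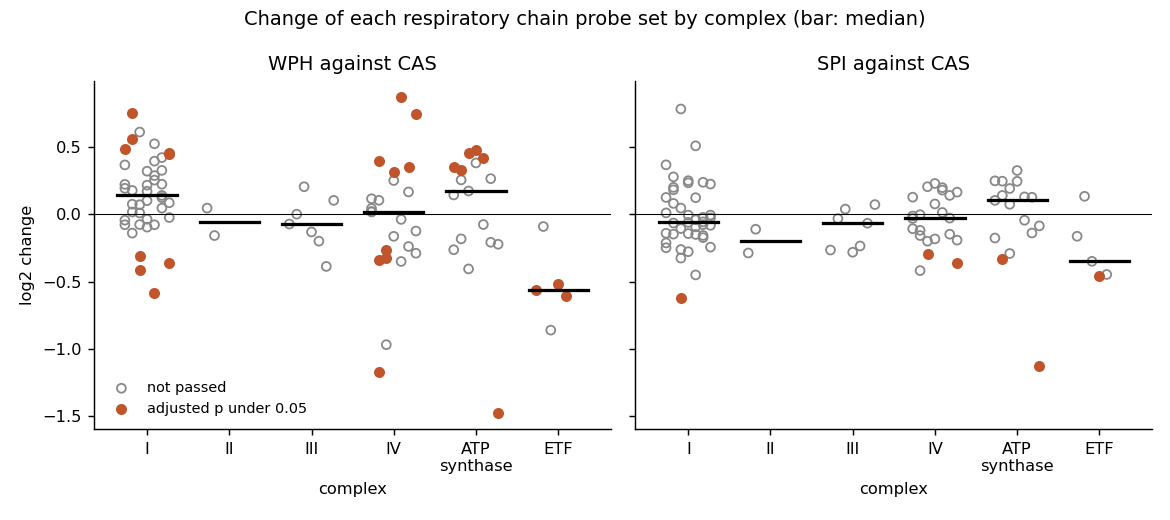
Log2 change of each respiratory chain probe set against CAS by complex (ETF, electron transfer flavoprotein and its dehydrogenase), for WPH on the left and SPI on the right. Filled points had a limma adjusted p under 0.05, open points did not, and bars mark the median, which was lowest for ETF in both panels.

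The tissue itself differed between the pools, and these values stand beside every result that follows. All 12 measured markers of colon epithelium were lower with WPH and 8 were lower with SPI, and their summed signal was 55847 to 59174 with CAS, 33670 to 35776 with SPI and 13940 to 15757 with WPH. All 8 smooth muscle markers were higher with both diets, with sums of 104685 to 105697, 148834 to 152092 and 200104 to 225763. With the wash round in the model, as defined below, 11 of the 12 epithelial and all 8 smooth muscle markers passed in the same direction with WPH, but 4 epithelial and 2 smooth muscle markers with SPI. The smooth muscle markers are very bright, and quantile normalization left 7 of 8 higher with WPH (median log2 change 0.36 instead of 1.01) and 1 with SPI (0.21 instead of 0.50), whereas the epithelial markers lower were 12 with WPH and 9 with SPI. The lowest group mean of an epithelial marker was 206, that of Slc9a3 with WPH. All 9 compared markers of enteric neurons and glia were higher with WPH and 6 with SPI (median log2 change 1.27 and 0.61). After quantile normalization these counts were the same (1.29 and 0.65). With WPH 6 of 7 fibroblast and 3 of 4 adipocyte markers were higher, and as many after quantile normalization. Of 7 leukocyte markers 4 were higher and 1 lower with WPH, or 3 and 1 after it. In pooled tissue, fewer cells of a type and less RNA per cell cannot be told apart, and the part of this shift in the results was not tested. The ratio of β-actin signal at the 3' end to that at the 5' end was 1.83 to 1.88 with CAS, 2.14 to 2.36 with SPI and 2.53 to 3.5 with WPH, while that of glyceraldehyde-3-phosphate dehydrogenase overlapped between diets. Brightness moved with diet too: of the 112 probe sets whose signal averaged 10000 or more over all arrays, 92 were higher and 1 was lower with WPH (median log2 change 0.60), whereas of the 5 respiratory chain probe sets that bright 2 were higher and none lower (median 0.17). By the hybridization date and time in their instrument settings the arrays fell into 3 rounds. They are called wash rounds here, a name the settings do not give, and whether they were experimental batches is not stated. The first held the CAS arrays and WPH replicate 2, and the second WPH replicates 1 and 3 and SPI replicates 1 and 2. The third held SPI replicate 3. Where a wash block is mentioned, the wash round was added to the model, so that WPH was compared with CAS through WPH replicate 2. SPI and CAS share no round, so SPI was then compared with CAS by way of WPH. SPI replicate 3, alone in its round, did not enter that change. Over all probe sets the median standard error of SPI against CAS was 0.32 with the block, beside 0.17 without it. Whether a call was lost through the round or through lower precision was not tested.

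Promoter sequences are shown for 5 genes that changed with WPH and represent the main patterns described next: Atp5po, Atp5pf and Ndufb8, which were higher, Etfdh, which was lower, and Cox6a2, a muscle isoform that was higher. They are RefSeq windows on assembly GRCr8, from 250 bases before to 50 bases after the annotated start, and 49 of the 58 genes had one. Atp5pd, Ndufa8, Ndufb9, Cox4i2, Cox6a1, Cox6c, Cox6c-ps1, Cyc1 and Uqcr11 did not. Both strands were searched for GCGCANGCG, bound by nuclear respiratory factor 1 (NRF1), CCGGAAG, bound by ETS factors such as GABP (nuclear respiratory factor 2), AAGATGGCG, bound by YY1, and TATAAA, the TATA box, and overlapping matches were counted separately. Capitals mark the matches to these 4. GGGCGG, bound by SP1, was also counted but is not marked. It was present in 22 of the 49 promoters (44.9%) and in 34.9% of all promoters. Among genes higher with WPH 5 of 12 promoters held it, and among genes lower with WPH 5 of 8. The NRF1 letters were present in 10 of the 49 promoters (20.4%) and in 6.26% of all 27457 promoters, the ETS letters in 10 (20.4%) and 9.22%, the YY1 letters in 7 (14.3%) and 1.93%, and the TATA letters in 2 (4.08%, Cox8b and Ndufs6) and 14.3%. Among genes higher with WPH, 3 of 12 promoters held the NRF1 letters, 2 the ETS letters and 2 the YY1 letters, and among genes lower with WPH these counts were 2, 2 and 1 of 8. The window of Atp5po (chr11:44657434-44657733, minus strand) holds a palindromic NRF1 run that matches on both strands, that of Atp5pf (chr11:37375052-37375351, minus strand) holds YY1 and ETS letters, that of Ndufb8 (chr1:253362887-253363186, minus strand) YY1 letters, and that of Etfdh (chr2:167060709-167061008, minus strand) NRF1 letters. That of Cox6a2 (chr1:192219667-192219966, minus strand) holds none of the 4. A match is a run of letters and was not tested for binding.
Atp5po: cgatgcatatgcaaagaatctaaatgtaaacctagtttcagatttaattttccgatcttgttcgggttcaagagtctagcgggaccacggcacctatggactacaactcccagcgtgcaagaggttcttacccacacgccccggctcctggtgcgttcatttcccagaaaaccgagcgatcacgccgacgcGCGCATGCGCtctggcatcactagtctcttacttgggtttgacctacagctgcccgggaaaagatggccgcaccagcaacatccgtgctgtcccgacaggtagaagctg
Atp5pf: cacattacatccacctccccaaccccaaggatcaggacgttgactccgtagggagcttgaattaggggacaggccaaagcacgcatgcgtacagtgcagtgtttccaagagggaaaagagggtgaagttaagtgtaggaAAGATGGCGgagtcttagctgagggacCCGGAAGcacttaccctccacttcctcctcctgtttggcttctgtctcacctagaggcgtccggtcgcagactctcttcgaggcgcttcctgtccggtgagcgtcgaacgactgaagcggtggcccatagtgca
Ndufb8: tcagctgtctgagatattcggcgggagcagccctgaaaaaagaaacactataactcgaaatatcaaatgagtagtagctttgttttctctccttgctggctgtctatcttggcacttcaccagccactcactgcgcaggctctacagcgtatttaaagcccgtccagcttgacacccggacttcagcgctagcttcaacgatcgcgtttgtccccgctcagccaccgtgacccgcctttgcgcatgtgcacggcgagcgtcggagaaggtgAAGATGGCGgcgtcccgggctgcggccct
Etfdh: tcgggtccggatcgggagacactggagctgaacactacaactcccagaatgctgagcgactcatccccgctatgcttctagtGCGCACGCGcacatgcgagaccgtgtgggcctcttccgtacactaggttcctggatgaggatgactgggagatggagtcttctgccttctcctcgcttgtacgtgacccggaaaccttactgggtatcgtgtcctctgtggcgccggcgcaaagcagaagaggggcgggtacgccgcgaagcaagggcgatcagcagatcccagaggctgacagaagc
Cox6a2: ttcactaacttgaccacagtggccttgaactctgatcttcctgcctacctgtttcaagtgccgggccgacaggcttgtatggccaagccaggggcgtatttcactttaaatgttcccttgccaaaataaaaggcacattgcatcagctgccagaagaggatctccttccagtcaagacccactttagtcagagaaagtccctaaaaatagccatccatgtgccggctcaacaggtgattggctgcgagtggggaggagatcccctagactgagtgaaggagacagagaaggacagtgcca

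Several structural subunits of ATP synthase rose with WPH. Atp5po encodes the subunit of the stalk that confers oligomycin sensitivity, and its probe set D13127_at gave 1596, 1951 and 1610.4 with CAS, 1991, 2085 and 2006 with SPI and 2388, 2478 and 2269.9 with WPH. All WPH arrays lay above all CAS arrays, and the SPI arrays lay between them. The log2 change with WPH was 0.47 (SE 0.097, limma adjusted p = 0.00233), or 0.53 with the wash block (adjusted p = 0.0301). The second probe set of the gene, D13127_g_at, rose by 0.41 (SE 0.10, adjusted p = 0.00671), but by 0.21 after quantile normalization (adjusted p = 0.112) and by 0.43 with the wash block (adjusted p = 0.0616). Atp5pf, coupling factor 6 of the same stalk, gave 1597, 1758 and 1875 with CAS, 1974, 1912 and 2074 with SPI and 2453.5, 2482 and 2229.6 with WPH on X54510_at. Here too the WPH arrays were all above the CAS arrays, with a log2 change of 0.46 (SE 0.092, adjusted p = 0.00213), or 0.51 with the wash block (adjusted p = 0.0266). The second Atp5pf probe set, X54510_g_at, had a similar change of 0.38 with a wider spread and did not pass (adjusted p = 0.173).

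Atp5f1b, the catalytic β subunit, gave signals of 10566, 9939 and 9207 with CAS, 10313, 11833.5 and 9805.5 with SPI and 11943, 12534 and 13356.5 with WPH. The WPH arrays were above the CAS arrays, and the log2 change was 0.35 (SE 0.090, limma adjusted p = 0.00924), but it was 0.04 after quantile normalization (adjusted p = 0.766) and did not pass with the wash block (0.34, adjusted p = 0.0954). Atp5f1e, the ε subunit of the central stalk, rose by 0.33 on rc_AI171844_at (adjusted p = 0.0249) and lost the call when CAS replicate 1, 2 or 3 or WPH replicate 2 was left out, with adjusted p between 0.0574 and 0.099. Its second probe set, rc_AI171844_g_at, changed by 0.17 and did not pass (adjusted p = 0.076). Probe sets of the α, γ, b and d subunits (Atp5f1a, Atp5f1c, Atp5pb and Atp5pd) and both of the δ subunit (Atp5f1d) did not pass in any comparison, with log2 changes with WPH from -0.26 to 0.26.

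Atp5if1, the ATPase inhibitory factor that blocks ATP hydrolysis by the enzyme, showed the largest change of all members on 1 of its 4 compared probe sets. M35300_f_at gave 458, 575 and 390.2 with CAS, 245, 232 and 174 with SPI and 211, 162 and 139 with WPH. The CAS arrays were all above those of both other diets, which overlapped each other. Its mean signal was 2.78-fold lower with WPH (log2 change -1.48, SE 0.21, limma adjusted p = 0.000186) and 2.19-fold lower with SPI (log2 change -1.13, adjusted p = 0.00266), or -1.53 (adjusted p = 0.00529) and -1.06 (adjusted p = 0.175) with the wash block. The other Atp5if1 probe sets had WPH changes of -0.18, -0.22 and -0.41 and did not pass. One of them, D13122_f_at, passed in SPI against CAS (log2 change -0.33, adjusted p = 0.0242), a call that was lost without CAS replicate 1 or 3 or SPI replicate 1 or 3 (adjusted p from 0.0688 to 0.1). The f in these names marks probe sets whose probes can match related transcripts, so that the M35300_f_at signal may not come from Atp5if1 alone.

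Complex I members moved in both directions. Ndufb8, an accessory subunit of the membrane arm, gave 5111, 4918 and 5234 with CAS, 5195, 6288 and 5218 with SPI and 6744, 7172 and 7428 with WPH on rc_AA964320_at. All WPH arrays were above all CAS and SPI arrays, with a log2 change against CAS of 0.48 (SE 0.090, limma adjusted p = 0.00123), or 0.50 with the wash block (adjusted p = 0.0274). The other compared Ndufb8 probe sets, rc_AA851403_at and rc_AA851403_g_at, changed by 0.52 and 0.22 and did not pass. Ndufaf3, an assembly factor of complex I rather than a subunit, gave 572, 483 and 465 with CAS, 605, 704 and 538 with SPI and 802, 797 and 960.1 with WPH on rc_AI171562_at. Its log2 change with WPH was 0.75 (SE 0.14, adjusted p = 0.00112), or 0.66 with the wash block (adjusted p = 0.0338), and its other probe sets, U95161_s_at and U95162_at, changed by 0.29 and 0.12 without passing. SPI against WPH gave -0.36 for Ndufb8 (adjusted p = 0.0164) and -0.47 for Ndufaf3 (adjusted p = 0.0323), and both of these calls were lost without SPI replicate 1 or 3 or WPH replicate 2 or 3, with adjusted p between 0.0522 and 0.122.

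Ndufa4, a small protein first assigned to complex I and later found in complex IV, had signals of 1805, 1842 and 1919 with CAS, 1643, 2017.5 and 1899 with SPI and 2734, 2545 and 2326 with WPH. The SPI and CAS arrays overlapped and the WPH arrays were above both. The log2 change was 0.45 against CAS (SE 0.10, limma adjusted p = 0.00428), and SPI against WPH gave -0.45 (adjusted p = 0.00876). With the wash block these values were 0.46 (adjusted p = 0.0667) and -0.47 (adjusted p = 0.066). Ndufa5 and Ndufb6, accessory subunits, rose by 0.56 and 0.46 with adjusted p of 0.0429 and 0.0225. The second Ndufb6 probe set, rc_AI104528_at, gave -0.04 (adjusted p = 0.864). Both calls were lost with the wash block (adjusted p = 0.218 and 0.174) and without CAS replicate 1 or 3 or WPH replicate 1, and that of Ndufa5 also without CAS replicate 2 or WPH replicate 2, with adjusted p between 0.0587 and 0.148.

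Ndufc1, an accessory subunit of the membrane arm, was lower on both of its probe sets. On rc_AI104679_s_at the signals were 2505, 2519 and 2786 with CAS, 1629.6, 2510.1 and 1686 with SPI and 1877, 1846 and 1512 with WPH. The WPH arrays were all below the CAS arrays, and SPI replicate 2 lay among the CAS values. The log2 change with WPH was -0.58 (SE 0.16, limma adjusted p = 0.0118), or -0.49 with the wash block (adjusted p = 0.159). rc_AI176491_at gave -0.41 with WPH (adjusted p = 0.0479) and -0.62 with SPI (SE 0.15, adjusted p = 0.0124). The WPH call on that probe set was lost without any 1 of the CAS or WPH arrays (adjusted p from 0.0588 to 0.125), and the SPI call was lost without SPI replicate 1 (adjusted p = 0.0544) or 3 (adjusted p = 0.0523). Ndufa3 and Ndufa6, also accessory subunits, changed by -0.36 and -0.31 with adjusted p of 0.0387 and 0.0473. With the wash block they changed by -0.10 (adjusted p = 0.702) and -0.09 (adjusted p = 0.685), and the calls were lost with 7 and 8 of the 9 arrays left out singly (adjusted p up to 0.17).

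The other 32 probe sets of complex I did not pass in WPH against CAS. They include Ndufs1, Ndufs7, Ndufs8 and Ndufv2, core subunits that carry iron-sulfur clusters, whose log2 changes lay between -0.08 and 0.39. Ndufb9 was 1.29-fold lower with SPI than with WPH (log2 change -0.36, limma adjusted p = 0.0172), with signals of 2969, 3348 and 3338 with CAS, 2791, 3149 and 2815 with SPI and 3465, 3961 and 3832 with WPH. That call was lost without SPI replicate 1 or 3 or WPH replicate 2 or 3, with adjusted p between 0.0557 and 0.0683, and with the wash block (adjusted p = 0.167). The pair of compared Ndufa4l2 probe sets, AA684929_f_at and AA684960_f_at, gave -0.14 and 0.61 and did not pass. In complex II, Sdha, the flavoprotein subunit of succinate dehydrogenase, had signals of 2716, 2792 and 2376 with CAS, 2789, 2463 and 1443 with SPI and 2739.5, 2638 and 2740.1 with WPH. SPI replicate 3 was far below the other 8 arrays, and neither diet passed the limma test against CAS (adjusted p = 0.88 with WPH and 0.345 with SPI). In complex III, log2 changes with WPH ran from -0.39 for Uqcrfs1, the Rieske iron-sulfur protein, on rc_AI103911_at to 0.20 for Cyc1, cytochrome c1.

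In complex IV the muscle and the general isoform of subunit 6a moved in opposite directions with WPH. Cox6a2, the isoform of heart and skeletal muscle, gave 351, 331 and 395 with CAS, 449.5, 397 and 361 with SPI and 665, 580.3 and 559 with WPH on X12554cds_s_at. The WPH arrays were all above those of CAS and SPI, which overlapped, and the log2 change was 0.74 against CAS (SE 0.13, limma adjusted p = 0.00088), or 0.70 with the wash block (adjusted p = 0.0271). A second probe set, rc_AI171644_s_at, gave 160.1, 139.6 and 237 with CAS, 171, 222 and 209.8 with SPI and 269.5, 367 and 327 with WPH and a log2 change of 0.87 (SE 0.22, adjusted p = 0.00746), or 1.07 with the wash block (adjusted p = 0.0371). In SPI against WPH these probe sets gave -0.58 (adjusted p = 0.00964) and -0.67 (adjusted p = 0.0494). The latter call was lost without CAS replicate 1, any SPI array, or WPH replicate 2 or 3 (adjusted p from 0.0581 to 0.162).

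Cox6a1, the isoform of most other tissues, had signals of 358.5, 263 and 287 with CAS, 252, 266 and 169.6 with SPI and 162, 105 and 139 with WPH on X72757_at. All WPH arrays were below all CAS arrays, and the mean was 2.24-fold lower (log2 change -1.17, SE 0.23, limma adjusted p = 0.00162), or -1.52 with the wash block (adjusted p = 0.00239). The brighter X72757_g_at gave 5621, 5505 and 5879.7 with CAS, 4968.5, 5318 and 4542.5 with SPI and 4715, 4910.1 and 4519 with WPH. Its change was smaller, -0.27 (SE 0.082, adjusted p = 0.0228), and the call was lost without CAS replicate 1 or 3 or WPH replicate 1 or 3 (adjusted p from 0.0505 to 0.0808). The third probe set, rc_AI104520_s_at, changed by -0.16 (adjusted p = 0.293). In SPI against WPH, X72757_at was higher by 0.75 (adjusted p = 0.0378), a call lost without CAS replicate 3, SPI replicate 1 or 2, or WPH replicate 2 or 3 (adjusted p from 0.0569 to 0.126). Of 5 compared markers of striated muscle, 3 were higher with WPH, among them creatine kinase of muscle (Ckm, log2 change 0.94, adjusted p = 0.000364), and their summed signal was 2239 to 2419 with CAS, 2316.5 to 3104 with SPI and 3230 to 3641 with WPH. Myh6 and Myh7, the defining myosin heavy chains of heart, had no group mean of 100, and the part of such cells in the Cox6a2 signal was not tested.

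Cox5a had the largest change of complex IV in SPI against WPH (log2 change 1.17 on rc_AI104513_at) and did not pass. The other subunits of complex IV that passed changed less than Cox6a2. Cox4i2, the lung isoform of subunit 4, rose by 0.40 (limma adjusted p = 0.0416), and Cox7a2l, which joins complexes III and IV into supercomplexes, by 0.35 on rc_AI172452_at (adjusted p = 0.047). The Cox7a2l arrays of CAS and WPH overlapped, since CAS replicate 1 had 1725 and WPH replicate 3 had 1715.5. Each of these calls was lost when any 1 of several arrays was left out, with adjusted p up to 0.146 and 0.162. Cox4i1 encodes the general isoform of subunit 4, and rc_AA818226_s_at, one of its probe sets and 1 of the 5 very bright members, gave a log2 change of 0.32 (adjusted p = 0.0284). After quantile normalization it was -0.42 (adjusted p = 0.000565), so that its direction is not settled, and the call was lost without CAS replicate 2 or WPH replicate 2 or 3 (adjusted p from 0.062 to 0.106). The other Cox4i1 probe sets changed by 0.10 and 0.02 and did not pass. Cox8a, a small subunit of the membrane part, gave 7988, 7294 and 7782.5 with CAS, 5760.4, 7026 and 6108 with SPI and 6179, 6056 and 6181 with WPH on L48209_s_at. WPH and SPI arrays were all below the CAS arrays, with log2 changes of -0.32 (SE 0.085, adjusted p = 0.0106) and -0.29 (adjusted p = 0.0307), neither of which passed with the wash block (adjusted p = 0.0988 and 0.423). A second probe set, rc_AI102505_at, passed with SPI (log2 change -0.36, adjusted p = 0.0424) and gave -0.29 with WPH (adjusted p = 0.0672). Both SPI calls were lost without CAS replicate 1 or 3 or SPI replicate 1 or 3, and the second also without WPH replicate 2, with adjusted p between 0.0551 and 0.146. The other Cox8a probe sets, M28255_s_at and rc_AI102505_g_at, gave 0.17 and 0.04 with WPH and did not pass. Cox6b1, on the outer face of the complex, changed by -0.34 (adjusted p = 0.0373) and lost the call without CAS replicate 1 or 3 or WPH replicate 1 or 3 (adjusted p from 0.081 to 0.117).

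Of the genes that pass electrons from fatty acid oxidation into the chain, 1 of 2 Etfa and 2 of 3 Etfdh probe sets were lower with WPH, and 1 of these calls passed with the wash block. Etfa, the α subunit of the electron transfer flavoprotein, gave 1095, 1236 and 1154 with CAS, 1115, 922 and 1081 with SPI and 735, 851 and 780 with WPH on rc_AA894174_at. The WPH arrays were all below those of CAS and SPI, and the log2 change against CAS was -0.56 (SE 0.11, limma adjusted p = 0.00175), or -0.45 with the wash block (adjusted p = 0.0761). In SPI against WPH it was 0.40 (adjusted p = 0.0266), lost without SPI replicate 1 or 3 or WPH replicate 1 or 3 (adjusted p from 0.0678 to 0.104). The second Etfa probe set, rc_AA894174_g_at, changed by -0.09 with WPH and did not pass (adjusted p = 0.607). Etfdh, the dehydrogenase that hands these electrons to ubiquinone, gave 485, 487.5 and 485 with CAS, 361, 304 and 404 with SPI and 359, 303 and 359.8 with WPH on rc_AI176422_g_at. All CAS arrays were above all others. The log2 change was -0.52 with WPH (SE 0.14, adjusted p = 0.0105), or -0.68 with the wash block (adjusted p = 0.0207). With SPI it was -0.46 (adjusted p = 0.0332), a call lost without any CAS array or without SPI replicate 1 or 2 (adjusted p from 0.0741 to 0.102). A second Etfdh probe set, rc_AI237007_at, was also lower with WPH (log2 change -0.61, adjusted p = 0.0287), and lost the call without CAS replicate 3 or WPH replicate 2 or 3 (adjusted p from 0.0629 to 0.132). The third, rc_AI176422_at, gave -0.86 and did not pass (adjusted p = 0.299). The Etfb gene was not analysed here.

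**Figure D3:**
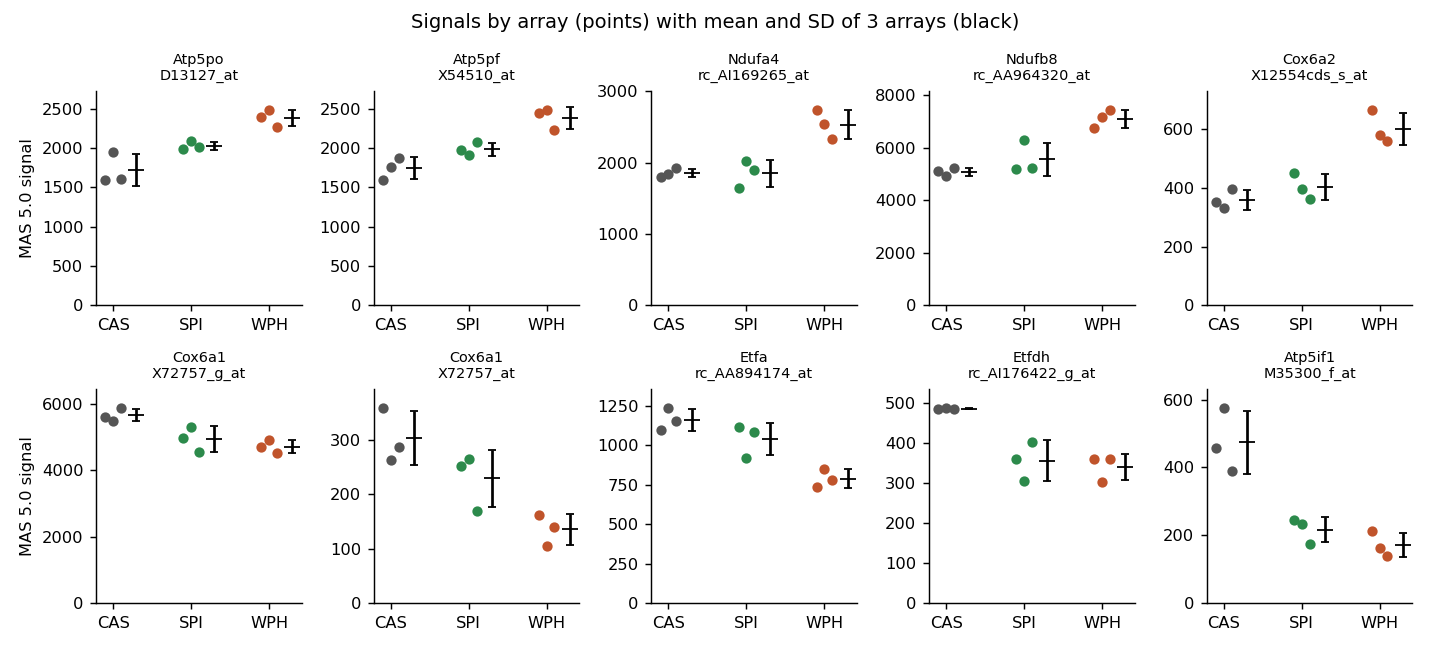
MAS 5.0 signals of 10 respiratory chain probe sets on each array (colored points, 3 per diet) with the mean and SD (black), each panel on its own linear axis from 0. In the upper panels the WPH points lie above all CAS points, and in the lower panels they lie below them.

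Probe sets of the same gene often did not give the same result. Of the 28 genes with at least 2 compared probe sets, 10 had probe sets of opposite sign in WPH against CAS, 14 had some that passed and some that did not, 3 had all passing (Atp5po, Cox6a2 and Ndufc1) and 11 had none. No gene had probe sets that passed in both directions. In SPI against CAS, 4 of the 28 genes had some passing and none had all. Counting 1 probe set per gene, the brightest, 11 genes were higher and 6 lower with WPH, with no share over all genes counted this way to set beside it. Where a single probe set passed, as for Ndufaf3, Atp5if1 and Etfa, the value belongs to that probe set.

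**Figure D4:**
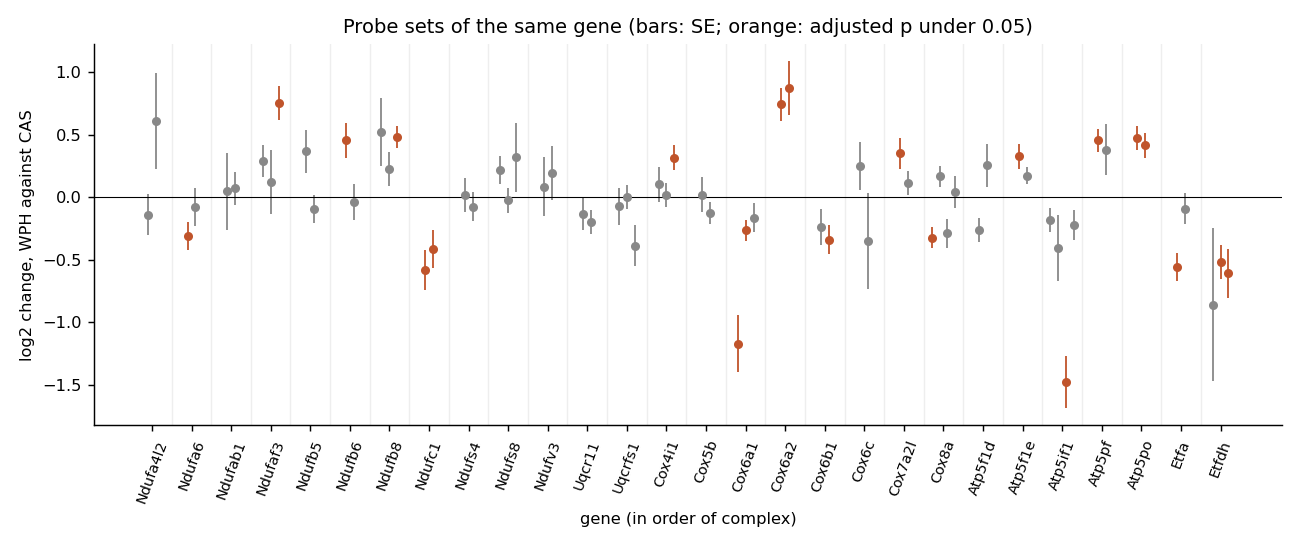
Log2 change of WPH against CAS for the 28 genes with several compared probe sets, in the order of the complexes from I to the electron transfer flavoprotein genes, with the standard error of each probe set as a bar. Orange points had a limma adjusted p under 0.05, and all 3 genes whose probe sets all passed have their points on 1 side of 0.

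Many of these calls depended on single arrays or on the wash round. Of the 27 WPH calls against CAS, 15 were kept whichever of the 9 arrays was left out, and 10 passed with the wash block. The direction with the block was the same for all 27. That value rests on WPH replicate 2 and the CAS arrays, which both fits share, so the same direction is no separate support. Leaving out an array gave 10 to 15 higher members. No shares over all probe sets stand beside this and the other counts with an array left out. Whether the whole array moved with them was not tested. The number lower fell from 12 to 7 without CAS replicate 1 or 3 and to 6 without WPH replicate 3. With the wash block 7 were higher (2 complex I, 2 complex IV and 3 ATP synthase probe sets) and 3 lower, 1 each for Cox6a1, Atp5if1 and Etfdh. Among all 5606 probe sets, 731 were higher and 743 lower with the block, beside 1174 and 1001 without it. Of the 6 SPI calls against CAS, that of Atp5if1 on M35300_f_at alone was kept with every array left out in turn, and none passed with the wash block. Among all probe sets, the SPI calls were 100 higher and 152 lower with the block, beside 673 and 570 without it. The members lower with SPI were 2 without CAS replicate 1 or 3 or SPI replicate 3, 1 without SPI replicate 1 and 10 without SPI replicate 2. In addition, 1 member was higher without CAS replicate 2, CAS replicate 3 or SPI replicate 2. In SPI against WPH, 6 members were lower, but 2 without SPI replicate 1 or 3 or WPH replicate 2 or 3 and 12 without SPI replicate 2, and the calls on Ndufa4 and on Cox6a2 (X12554cds_s_at) were kept throughout. The 2 higher with SPI became 1 or 0 without any single SPI or WPH array or CAS replicate 3.

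COX1, COX2 and COX3, the subunits of complex IV encoded in mitochondrial DNA that form its catalytic core, lie outside the rule, and all 3 were higher with both diets as scaled by the authors. COX1, on rc_AA893485_g_at, gave 20488, 20484 and 21201 with CAS, 27036, 28607 and 28022 with SPI and 37308, 42243 and 39006 with WPH. The 3 diets did not overlap, and WPH gave a log2 change of 0.93 (SE 0.067, limma adjusted p = 1.07e-06) and SPI 0.43 (adjusted p = 0.000944), or 1.03 (adjusted p = 0.000159) and 0.57 (adjusted p = 0.0445) with the wash block. COX2 and COX3 rose by 0.84 (adjusted p = 0.000611) and 0.78 (adjusted p = 7.29e-05) with WPH and by 0.59 (adjusted p = 0.0118) and 0.47 (adjusted p = 0.00552) with SPI. With the wash block the SPI changes of COX2 and COX3 did not pass (adjusted p = 0.373 and 0.0551), and that of COX2 also did not without SPI replicate 1 (adjusted p = 0.0514). These are among the very bright probe sets described above, and after quantile normalization COX1, COX2 and COX3 changed by 0.13, 0.27 and 0.02 with WPH, none of which passed (adjusted p = 0.115, 0.206 and 0.887).

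Some of the enzymes that deliver electrons to the electron transfer flavoprotein were lower too. Of 6 compared dehydrogenases, all of them acyl-CoA dehydrogenases except Sardh (sarcosine dehydrogenase), 2 were lower and 1 higher with WPH, beside 17.9% and 20.9% of all probe sets, and 4 were lower with SPI, beside 10.2%. With the wash block Acadm and Acads alone of these calls passed with WPH and none of the 4 with SPI, while Sardh, which had not passed without it, was lower with both diets. Acadm, the medium-chain enzyme, gave 1879, 1479 and 1649.5 with CAS, 889, 910.4 and 885 with SPI and 808, 1001 and 894 with WPH. All CAS arrays were above the others, with a log2 change of -0.89 for WPH and for SPI (SE 0.12, limma adjusted p = 9.86e-05 and 0.000269), or -0.73 (adjusted p = 0.0122) and -0.65 (adjusted p = 0.148) with the wash block. Acads, the short-chain enzyme that acts on butyrate, fell by 0.65 with WPH (adjusted p = 0.00127) and by 0.72 with SPI (adjusted p = 0.0014), the latter lost with the wash block (adjusted p = 0.0935). Acadvl, the very-long-chain enzyme, rose by 0.47 with WPH (adjusted p = 0.0449), but did not pass with the wash block (adjusted p = 0.119) or without CAS replicate 2 or 3, SPI replicate 1 or any WPH array (adjusted p from 0.0589 to 0.146). The epithelial markers fell on the same arrays, and their part in these values was not tested.

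Neighboring steps of mitochondrial metabolism were mixed, and their counts stand beside 20.9% higher and 17.9% lower among all probe sets. Of 10 compared inner membrane carriers and porins, 1 was higher and 3 lower with WPH. The largest change was that of Slc25a10, the dicarboxylate carrier (-1.13, limma adjusted p = 1.31e-06). The ADP/ATP carriers, which exchange the product of ATP synthase across the inner membrane, moved apart. Slc25a4, the isoform of heart and muscle, gave 2359.6, 2109 and 2359.8 with CAS, 2916.5, 3272 and 3216 with SPI and 4240.5, 4667 and 4640.2 with WPH, with no overlap between diets and a log2 change of 0.99 with WPH (limma adjusted p = 4.78e-06). Slc25a5, the isoform of proliferating cells, fell by 0.37 (adjusted p = 0.00157). Of 15 genes of the citrate cycle and pyruvate metabolism, a list that includes the cytosolic isoforms Mdh1 (higher) and Idh1 (lower), 4 were higher and 4 lower with WPH, from Pdha1 (pyruvate dehydrogenase, 0.67, adjusted p = 0.000549) to Pc (pyruvate carboxylase, -1.35, adjusted p = 9.35e-05). The second compared probe sets of Pdha1 (-0.07, limma adjusted p = 0.77) and Pc (-0.48, adjusted p = 0.0756) did not pass. Of 8 regulators of mitochondrial genes, 1 was higher and 2 lower with WPH: Thra, a thyroid hormone receptor, changed by 0.50 (adjusted p = 0.00363), Esrra, a nuclear receptor that drives respiratory chain genes, by -0.93 (adjusted p = 0.000767), and Pparg by -1.05 (adjusted p = 0.00135). A second compared Thra probe set gave 0.35 and did not pass (limma adjusted p = 0.2). With the wash block Esrra passed (adjusted p = 0.0196), whereas Thra and Pparg did not (adjusted p = 0.101 and 0.0804). Of the other groups, 2 of 10 antioxidant enzymes were higher and 2 lower, 1 of 10 import and chaperone genes was higher and 1 lower, none of 5 assembly and related genes outside the rule was higher and 1 was lower, and 4 of 15 genes of glycolysis were higher and 4 lower.

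**Figure D5:**
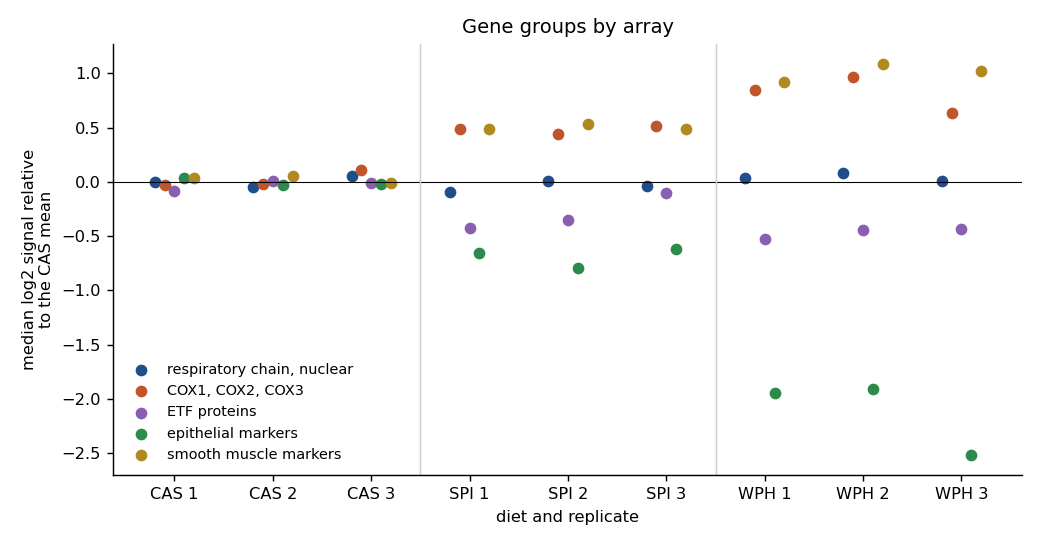
Median log2 signal of gene groups on each array relative to their CAS mean. The 95 nuclear-encoded respiratory chain probe sets (blue) stay between -0.09 and 0.08, whereas COX1 to COX3 and the smooth muscle markers lie above 0 and the ETF proteins and epithelial markers below 0 on all SPI and WPH arrays.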

How the data were processed

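The deposited table holds linear MAS 5.0 signals, 1 per probe set and array, and the authors had scaled the average of each array to 500. Signals under 0.1 were set to 0.1 and log2 was taken. Gene symbols came from the platform annotation (7018 probe sets with 1 symbol, 308 with several, 1473 with none). Probe sets with a mean of at least 100 in at least 1 diet were fitted with limma 3.58.1 (R 4.3.3), with diet as the factor over all 9 arrays and a variance trend, and p-values were adjusted by the Benjamini-Hochberg method over all 5606. The fit was tested on simulated data. Figures and tables used Python 3.11.15, pandas 2.3.3 and matplotlib 3.10.9. Wash rounds were inferred from the hybridization date and time in the instrument settings, which name no round. An array no more than 30 minutes after the previous one was placed in the same round.

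The members and gene lists were chosen with earlier results of these data known. Members were chosen for naming where they passed with at least 1.5-fold in any comparison, had the largest change of their complex, or had probe sets that disagreed. Not all of these are described. Ndufab1, Ndufb5, Ndufs4, Ndufv3, Cox5b and Cox6c, whose probe sets disagreed, and Sdhaf2 and Uqcr11 passed in no comparison and enter the counts only. The other members that passed were named after their values were seen. Genes outside the rule were counted by their brightest probe set. Precision is limited by 3 arrays per diet.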

Additional observations from a re-analysis of the deposited data

How the results depend on the processing

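WPH against CAS, 15 higher became 7 with the wash round as a block and within round 1, and 0 at 2-fold, and 10 to 15 with an array left out. Quantile normalization gave 12 higher and 15 lower, with no share over all probe sets to set beside it. Whether this split differs from that of the whole array was not tested. The 12 lower became 7 with median centring or no variance trend, 3 with the wash block and within the round, 2 at 2-fold and 6 with 1 probe set per gene, and 6 to 11 with an array left out. SPI against CAS, 0 higher (limma) became 2 by the methods' t-test unadjusted and 0 to 1 with an array left out, whereas 6 lower became 10 with quantile normalization, 3 with median centring, no variance trend or the replicate block, 0 with the wash block, 1 by the methods' t-test after Benjamini-Hochberg adjustment, 1 at 2-fold, 2 with 1 probe set per gene and 1 to 10 with an array left out. SPI against WPH, 2 higher became 1 with only the compared diets, the replicate block, the unadjusted t-test or 1 probe set per gene, 0 with the wash block, within the round, by the adjusted t-test and at 2-fold, and 0 to 2 with an array left out. The 6 lower became 2 with no variance trend, 0 with the wash block, within the round, by the adjusted t-test and at 2-fold, 12 by the unadjusted t-test and 2 to 12 with an array left out. Among all 5606 probe sets, the wash block gave 731 higher and 743 lower in WPH against CAS. It gave 100 and 152 in SPI against CAS, and 352 and 208 in SPI against WPH. The cause was not tested. In WPH against CAS, the wash block and the comparison within round 1 both rest on WPH replicate 2 and the CAS arrays. Their equal counts are therefore not separate checks. Cox4i1 (rc_AA818226_s_at) turned from 0.32 to -0.42 with quantile normalization in WPH against CAS. With the replicate block, WPH against CAS had 11 higher and 9 lower, and the replicate numbers did not pair the arrays (correlations from -0.275 to 0.237). Apart from the wash block and the 2-fold limit, the settings above have no counts over all probe sets beside them. Whether the whole array moved with the members was not tested. SPI and CAS share no wash round, so that comparison had no value within a round, and its median of -0.04 was 0.06 with the wash block.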
